A study of Mus musculus with 472 samples.

Results

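The metabotropic glutamate receptors described here are the 7 mouse genes Grm2, Grm3, Grm4, Grm5, Grm6, Grm7 and Grm8, taken by symbol, whatever their values, from a table of 55450 genes. All 7 symbols were found once. They were measured in single retinal ganglion cells, the neurons whose axons carry the output of the retina to the brain. Every cell came from C57BL/6J mice 7 to 9 weeks old, with no transgene, treatment or other genotype in the labels, so there is 1 group. Each cell was recorded with a patch pipette in a flat-mounted retina under blue and green light spots, and its aspirated content went through Smart-seq2, a full-length amplification without molecular identifiers. No animal is named for any cell, so all cells together count as 1 sample and no p-value is given. Intervals are exact (Clopper-Pearson) 95% intervals that cover counting error only.

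These receptors are G protein-coupled receptors that sense glutamate and act more slowly than ion channel receptors. Grm5 belongs to group I, which couples to Gq and releases calcium from internal stores. Grm2 and Grm3 form group II, and Grm4, Grm6, Grm7 and Grm8 form group III; both couple to Gi/o proteins, lower cyclic AMP and often sit on presynaptic terminals, where they reduce transmitter release. In the retina Grm6 encodes mGluR6, the receptor through which ON bipolar cells sense photoreceptor glutamate, and Grm7 and Grm8 encode receptors of synaptic terminals.

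Levels are given as CPM, the counts of a gene per 1000000 gene counts of its cell, spike-in RNAs left out. A cell is positive for a gene from 10 CPM upwards. Cells had a median of 5184792.5 gene counts (58907 to 13004880), so that 10 CPM was 51.8 counts at the median depth, and 7 cells had under 1000000. The library names show 5 sequencing runs, A to E, with 98, 62, 59 and 19 cells in B to E and the rest in A. Run D stood apart with a median of 3024 positive genes, against 5554.5 over all cells. Of 12 pan-ganglion-cell genes, at least 6 were detected as positive in 97.5% of cells. RNA of other retinal cells was present as well, since 28.8% of cells had 3 or more of 8 bipolar markers, 24.8% had 3 or more of 6 amacrine markers and 68.01% had 3 or more of 8 rod markers.

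Grm7 was the commonest of the 7 genes, Grm8 came next, and Grm3 was nearly absent. At least 1 of the 7 was positive in 75.4% of cells (71.3% to 79.2%), and 2 or more in 45.1% (40.6% to 49.7%). Group III genes were positive in 71.6% (67.3% to 75.6%), the group I gene Grm5 in 22.03% and group II genes in 47 cells (9.96%, 7.41% to 13.02%). Grm7 or Grm8 alone accounted for much of this, as 64.4% of cells had 1 or both. As a scale, the median gene positive in any cell was positive in 9.75% of cells, and Grm7 had a higher share than 81.3% of those 22436 genes.

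**Figure D1:**
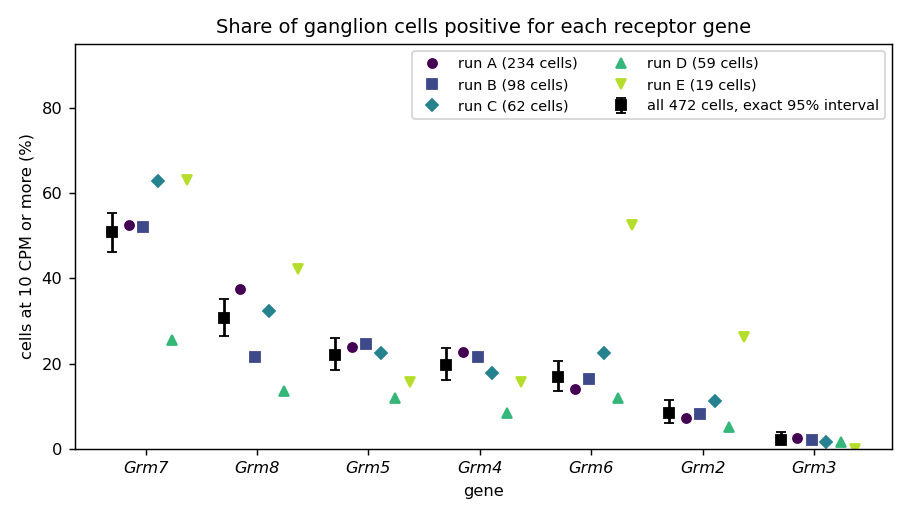
The share of cells at 10 CPM or more is plotted for each gene (percent, from 0), as a black square with its exact 95% interval for all cells and as 1 coloured symbol for each sequencing run. Grm7 stands at 50.8% and Grm3 at 2.12%, run D is lowest for every gene but Grm3, and the 19 cells of run E are highest for Grm2, Grm6, Grm7 and Grm8.

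Grm7 encodes mGluR7, a receptor of presynaptic active zones with low affinity for glutamate. It lies on the plus strand of chromosome 6 (110645581 to 111567230, mm10) and was positive in 240 cells (50.8%, 46.2% to 55.4%), with a lowest, median and highest level of 0, 11.03 and 1228 CPM over all cells. Among positive cells the median was 96.3 CPM, and 25% of all cells reached 100 CPM. It was the only member whose median cell was above 0. By run its share lay between 25.4% in D and 63.2% in E.

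Grm8 encodes mGluR8, another presynaptic group III receptor, on the minus strand of chromosome 6 (27275119 to 28135178). Its share was 30.7% of cells (26.6% to 35.1%), with a median of 75.1 CPM in positive cells, a highest level of 899 CPM and 55 cells at 100 CPM or more. Its median over all cells was 0, as for every member but Grm7. By run it was positive in 13.6% in D and 42.1% in E, and in 23.9% of cells without run A.

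Grm4 encodes mGluR4 (chromosome 17, 27422387 to 27521403, minus strand), also a presynaptic group III receptor, and was positive in 93 cells (19.7%, 16.2% to 23.6%) at a median of 36.5 CPM. A single cell reached 1448 CPM, and the next highest had 300.2 CPM. Only 19 cells were at 100 CPM or more, so Grm4 was mostly a low signal with a single high cell.

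Grm5 encodes mGluR5, a largely postsynaptic receptor, on the plus strand of chromosome 7 (87584168 to 88134907). It was positive in 22.03% of cells (18.4% to 26.05%) at a median of 56.8 CPM, with a highest level of 322.2 CPM. Grm6 (chromosome 11, 50850685 to 50866208, plus strand) was positive in 80 cells (16.9%, 13.7% to 20.6%) at a median of 41.2 CPM and at most 226.01 CPM. The intervals of Grm5, Grm4 and Grm6 overlap, so their order by share is not set apart by counting error.

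The group II genes were the rarest. Grm2 encodes mGluR2 (chromosome 9, 106643095 to 106656082, minus strand) and was positive in 40 cells (8.47%, 6.12% to 11.4%), at a median of 55.4 CPM and a highest level of 413.9 CPM. Grm3 encodes mGluR3 (chromosome 5, 9485541 to 9725170, minus strand), a receptor known from glia as well as neurons, and was positive in 10 cells (2.12%, 1.02% to 3.86%), the highest at 85.6 CPM. Its median positive cell had 45.3 CPM. The interval of Grm2 lies below those of the 5 commoner genes and above that of Grm3. These shares use 1 cut in CPM, which asks a higher level per length of a gene with fewer exon bases. Exon bases run from 3049 for Grm3 to 10247 for Grm5, and the part of length in the order of shares was not tested.

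**Figure D2:**
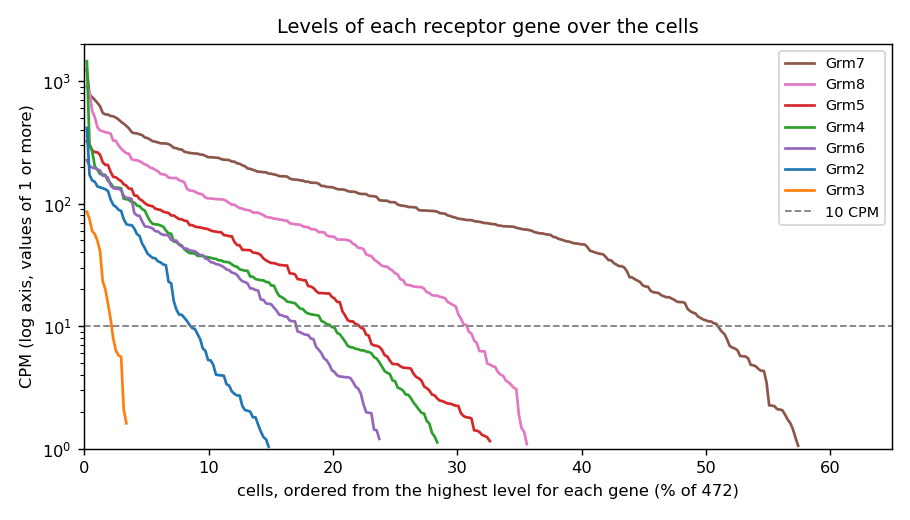
For each gene the cells are ordered from the highest level and plotted as percent of all cells against CPM on a log axis, for values of 1 CPM or more, with a dashed line at 10 CPM. The Grm7 curve crosses 10 CPM at 50.8% of cells and 100 CPM at 25%, against 11.7% for Grm8 and 4.03% for Grm4, whose curve starts with 1 cell at 1448 CPM.

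Levels of different genes can be compared only per length. Scaled to counts per kilobase of annotated exon, to a sum of 1000000 in each cell (TPM), Grm7 had a mean level of 40.1 ± 72.5 TPM (SD over all cells), Grm8 11.2 ± 28.4 TPM and Grm4 7.31 ± 32.001 TPM. Grm6 followed at 5.64 ± 17.1 TPM, Grm5 at 4.87 ± 12.9 TPM, Grm2 at 3.93 ± 17.2 TPM and Grm3 at 0.967 ± 7.24 TPM. Every SD exceeds its mean, and neighbours in this order differ by less than the SD of the gene ranked higher. That SD is the spread between cells and does not measure how well the order of the means is known. The mean follows how many cells are positive. In positive cells alone, the median level was 50.1 TPM for Grm7, 39.8 TPM for Grm3, 31.6 TPM for Grm2 and 23.2 TPM for Grm8, and it was 21.01 TPM for Grm6, 18.9 TPM for Grm4 and 16.2 TPM for Grm5. Per length of the longest transcript in place of all exons, the medians were 54.6 TPM for Grm7, 37.6 TPM for Grm8, 31.98 TPM for Grm3 and 25.9 TPM for Grm2, so Grm8 passed Grm3 and Grm2, and the mean of Grm8 was 18.3 TPM. By both lengths Grm3 and Grm2 were above Grm4, Grm5 and Grm6 in positive cells, with Grm3 resting on 10 cells.

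Some exons share bases with other annotated genes. The antisense genes Gm28111, Gm12660 and Gm20387 overlap exons of Grm2, Grm6 and Grm7 by 470, 599 and 130 bases, and were themselves positive in 0, 9 and 33 cells. The protocol does not mark strand, so reads in those stretches cannot be assigned to one strand.

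The start sites of the commonest gene and of Grm6 are shown because their upstream sequence differs in composition. RefSeq windows (GRCm38.p6, the same build as mm10) were matched for 5 of the 7 genes, 8 windows in all. Each line gives the 250 bases before a start site, 5′ to 3′ on the plus strand, with capitals marking the GC box GGGCGG, a site of Sp1-family factors, searched on both strands. The Grm7 window, the more upstream of its starts, is chr6:110645262-110645511, and the Grm6 window is chr11:50850435-50850684.
Grm7: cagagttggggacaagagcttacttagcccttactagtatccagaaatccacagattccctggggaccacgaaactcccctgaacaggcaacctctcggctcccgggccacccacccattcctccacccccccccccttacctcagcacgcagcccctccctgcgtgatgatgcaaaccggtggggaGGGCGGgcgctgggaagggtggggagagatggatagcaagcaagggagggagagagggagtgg
Grm6: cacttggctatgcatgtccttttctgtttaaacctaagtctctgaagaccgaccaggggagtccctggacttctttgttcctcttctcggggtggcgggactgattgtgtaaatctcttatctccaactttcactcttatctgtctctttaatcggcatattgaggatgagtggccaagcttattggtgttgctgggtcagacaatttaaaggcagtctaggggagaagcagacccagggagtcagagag
The Grm7 window held 62% G and C, 8 CpG dinucleotides and 1 GC box, and the Grm6 window held 47.6% G and C, 4 CpG dinucleotides and no GC box. The median over all 32851 windows was 52.4% G and C, and 32.7% of them held GGGCGG. At least 1 window of Grm2, Grm3, Grm7 and Grm8 held it, with 3 matches for Grm2. TAATCC, a motif of the homeobox factor Crx of photoreceptors and bipolar cells, also searched on both strands, was in none of the 8 windows and in 6.25% of all. These matches describe letters in the window only.

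Receptor genes shared cells. No member was positive in 24.6% of cells, 1 was in 30.3%, 2 were in 24.2% and 3 in 14.4%, and 20 cells had 4, 9 had 5 and 2 had 6. The median number of positive genes of any kind was 3362.5 in cells with 0 members, 5388 with 1, 5967.5 with 2 and 8551 with 6, and its part in these counts was not tested. The median percent of counts from spike-in RNAs was 1.71 with 0 members, 0.836 with 1 and 0.143 with 6, and its part was not tested either. The commonest single patterns were Grm7 with no other member in 69 cells, Grm8 with no other in 33, Grm7 with Grm8 in 27, Grm5 with Grm7 in 22 and Grm4 with Grm7 in 18. Grm7 stood without another member in 28.7% of its cells (23.1% to 34.9%), Grm8 in 22.8% (16.2% to 30.5%), and Grm5 in 10.6% (5.40% to 18.1%).

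Of the 21 pairs, Grm5 with Grm7 had the most joint cells beyond the number given by independent shares within runs, counted in cells. Grm7 was positive in 70.2% of Grm5-positive cells (60.4% to 78.8%), against 45.4% of cells without Grm5 (40.2% to 50.6%). Their 73 joint cells compare with 54.4 given by independent shares within runs. Grm8 was positive in 42 of 93 Grm4-positive cells (45.2%, 34.8% to 55.8%), against 27.2% of the others, and in 21 of 40 Grm2-positive cells (52.5%, 36.1% to 68.5%), against 28.7% of the others. Grm7 with Grm8 had 81 joint cells, more than any other pair, beside 76.9 from independent shares within runs. As a ratio to that number Grm5 with Grm7 stood at 1.34, below several other pairs. Grm2 stood higher with Grm3 (3.93, on 3 joint cells), Grm4 (1.91), Grm5 (1.71), Grm6 (1.69) and Grm8 (1.63), and lower with Grm7 (1.21). Also higher were Grm5 with Grm6 at 1.55, Grm4 with Grm8 at 1.40 and Grm4 with Grm5 at 1.36. Of all pairs, 17 had more joint cells than independent shares within runs give, and for 5 of the 21 the whole interval lay above that number. The other 4, all with Grm3, had fewer, with that number inside their intervals. With shares pooled over runs 18 pairs had more joint cells, and on that measure 7 did at 100 CPM. At 100 CPM Grm3 was positive in 0 cells, so no pair with it could have more. On the same measure 9 did among cells with fewer than 3 markers of each scored neuron (bipolar, amacrine, rod and cone). There Grm6 was positive in 2 cells, Grm3 in 3 and Grm2 in 4, which leaves few cells for their pairs. These falls therefore say little about sharing. Cells with more positive genes were more often positive for each member, and the part of this in the pairs was not tested.

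**Figure D3:**
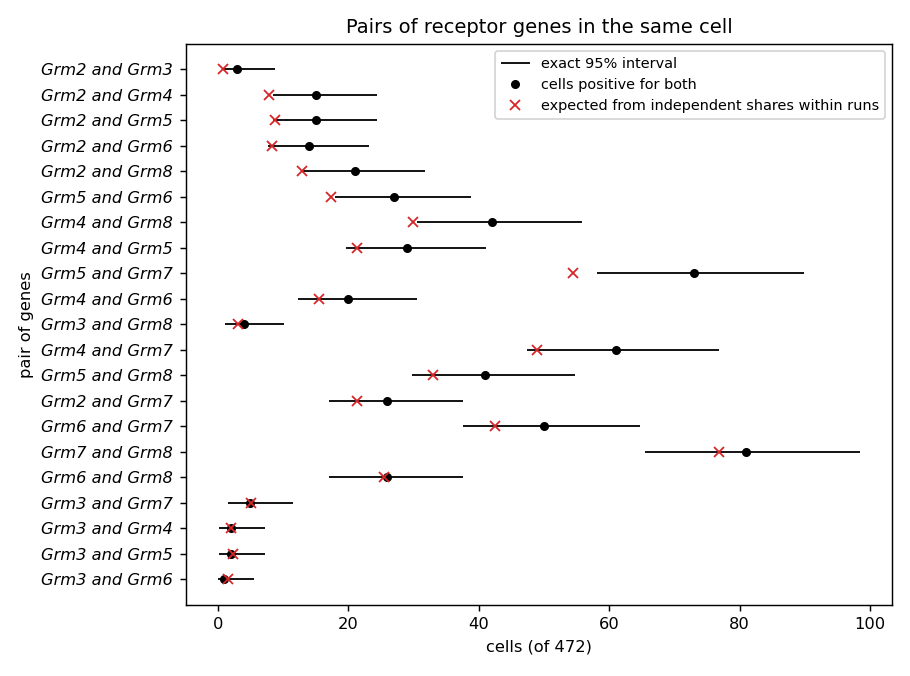
For each of the 21 pairs, black points give how many cells were positive for both genes (with exact 95% binomial intervals) and red crosses the number that independent shares within runs give, on an axis in cells. Grm5 with Grm7 shows the widest gap, at 73 cells beside 54.4, and Grm7 with Grm8 lies close, at 81 beside 76.9.

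Ganglion cells come in many types, and 11 sets of cells were formed from marker genes. These genes were chosen with earlier results of these data known. The sets are not cell types: most cells fell in 2 or more sets and 52 in none. A difference in share was counted at 15 percentage points or more, for the 5 members positive in 10% to 90% of cells, and set beside the share of all 10796 such genes that differed as much. In 6 of the sets a single member of the 5 (20%) was counted as higher, where the background ran between 13.1% and 26% of genes, so these counts of members are near the background.

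Grm7 was the member counted in cells with ON-OFF direction-selective markers and in cells with Mmp9 and Htr1d. In the 50 cells positive for Col25a1 and Cdh6, markers of ON-OFF direction-selective ganglion cells, it was positive in 38 (76%, 61.8% to 86.9%), against 47.9% of the others (43.01% to 52.7%). It was the only member counted as higher there, where 14.2% of genes were higher by as much. Its median level was 101.8 CPM over the set, and 25 of the 50 cells reached 100 CPM, against 22.04% of the others. In the 110 cells positive for Mmp9 and Htr1d, Grm7 was positive in 79 (71.8%, 62.4% to 79.98%), against 44.5% of the others (39.3% to 49.8%). Again it was the only member counted, beside 19.8% of genes, and 40% of the set and 20.4% of the others reached 100 CPM. The 2 sets share 21 cells. Within runs the differences were 28.8 and 24.7 points. Both sets had more positive genes than the other cells, with medians of 6045 against 5474 for Col25a1 and Cdh6 and of 6172.5 against 5398.5 for Mmp9 and Htr1d.

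Grm8 was the member counted in cells with alpha markers, at about the background rate. Cells positive for Spp1 and Kcng4, markers of alpha ganglion cells, made up 22.5% of all. Grm8 was positive in 51 of them (48.1%, 38.3% to 58.03%), against 25.7% of the others (21.3% to 30.5%). That is 1 of 5 members, beside 22.6% of genes, and the set had a median of 6462.5 positive genes, against 5365, whose part was not tested. Run A supplied 82 of these cells, and within runs the difference was 19.7 points. Grm7 had a share of 43.4% there and reached 100 CPM in 9.43% of the set, against 29.5% of the others. In the same set Grm5 was positive in 14.2%, against 24.3% in the rest. Of the set, 0 cells reached 100 CPM of Grm5, with an exact upper limit of 3.42%. Raising the threshold to 100 CPM for markers and receptor alike left a Grm8 difference of 6.70 points. With the markers kept at 10 CPM, Grm8 reached 100 CPM in 19.8% of the set, against 9.29% of the others.

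Grm8 was also the only member counted as higher in the 79 cells positive for Tbr1, a transcription factor of several ganglion cell types. It was positive in 37 of them (46.8%, 35.5% to 58.4%), against 27.5% of the others (23.1% to 32.2%), beside 13.1% of genes higher by as much. The set had a median of 6048 positive genes, against 5455. With markers and receptor at 100 CPM the set held 11 cells and the direction turned, to -2.62 points. With Tbr1 kept at 10 CPM, Grm8 reached 100 CPM in 13 of the 79 cells (16.5%), against 10.7% of the others. Grm7 reached 100 CPM in 8 of the 79 Tbr1-positive cells (10.1%), against 28% of the others.

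Grm7 and Grm8 were split differently over these sets. Grm7 without Grm8 was found in 59 of 110 cells with Mmp9 and Htr1d, and Grm8 without Grm7 in 8. In cells with Spp1 and Kcng4 these numbers were 19 and 24, and in Tbr1-positive cells 20 and 19. As shares they were 53.6% and 7.27% of the Mmp9 and Htr1d set, 17.9% and 22.6% of the Spp1 and Kcng4 set, 25.3% and 24.1% of the Tbr1-positive cells, and 33.7% and 13.6% of all cells. Both genes together were positive in 18.2%, 25.5% and 22.8% of these sets and in 17.2% of all cells.

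Grm7 was lower in 2 sets. In the 75 cells positive for Opn4, which encodes melanopsin, or for Eomes, a factor of melanopsin ganglion cells, Grm7 was positive in 28 (37.3%, 26.4% to 49.3%), against 53.4% of the others (48.4% to 58.4%). Few genes were lower there by as much, 0.0648% of them. Such genes were also rare in the other sets except that without Pou4f1, from 0.0185% (Pou4f3) to 0.389% (Foxp2, or Foxp1 with Irx4). The Opn4 or Eomes set had a median of 5991 positive genes, against 5468 in the others. The difference of -16.1 points is close to the limit, and it was -4.27 points at 1 CPM and -13.9 points with cells thinned to 1000000 counts. The set held more cells with 3 or more amacrine markers (41.3% against 21.7%) and bipolar markers (37.3% against 27.2%), and without bipolar-marker cells the difference was -12.6 points. In the 87 cells without Pou4f1, a factor of most ganglion cells, Grm7 was positive in 23 (26.4%, 17.5% to 36.98%), against 56.4% of the others (51.2% to 61.4%). That set had fewer positive genes, with a median of 4137 against 5773, and 42.2% of all genes were lower by as much, so a lower share there is common among genes.

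In the 24.4% of cells positive for Pou4f3, another ganglion cell factor, Grm7 was positive in 75 (65.2%, 55.8% to 73.9%), against 46.2% of the others, where 26% of genes were higher by as much and the median of positive genes was 6142, against 5224. The difference fell under the limit, to 12.7 points, among cells with at least 3000 positive genes.

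Grm5 was the member counted in cells with Irx3, again at about the background rate. In the 59 cells positive for Irx3 and negative for Eomes, Grm5 was positive in 22 (37.3%, 25.04% to 50.8%), against 19.9% of the others (16.1% to 24.03%), beside 18.5% of genes. The set had a median of 6068 positive genes, against 5410, whose part was not tested. At 1 CPM the difference was 11.3 points. In the 22.2% of cells positive for Hpcal4 and Kctd8, Grm5 (39.05% against 17.2%), Grm8 (46.7% against 26.2%), Grm7 (63.8% against 47.1%) and Grm6 (29.5% against 13.4%) were all counted as higher. There 50.6% of all genes were higher by as much, and the set had a median of 6535 positive genes, against 5137. It also held more cells with 3 or more amacrine markers (47.6% against 18.3%) and bipolar markers (42.9% against 24.8%), whose part was not tested. At 100 CPM for markers and receptors it held 15 cells and the direction of all 4 turned.

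Grm4 was not counted as different in any of the 11 sets. Its share was 28.3% in cells with Spp1 and Kcng4, against 17.2% in the others, and 12.6% in cells without Pou4f1. Grm2 and Grm3 were too rare for the count. Grm2 was positive in 13 of 52 cells with Foxp2, or Foxp1 with Irx4 (25%, 14.03% to 38.9%), against 27 of the other 420 (6.43%, 4.28% to 9.22%), and 9.57% of the genes in the count were higher by 15 points or more there. Of those 52 cells, 46.2% had 3 or more amacrine markers, against 22.1% of the others, and the part of this was not tested. In cells with Tfap2d without Eomes, Foxp2, Tbr1, Neurod2 and Irx3, no member was counted, beside 1.13% of genes higher.

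**Figure D4:**
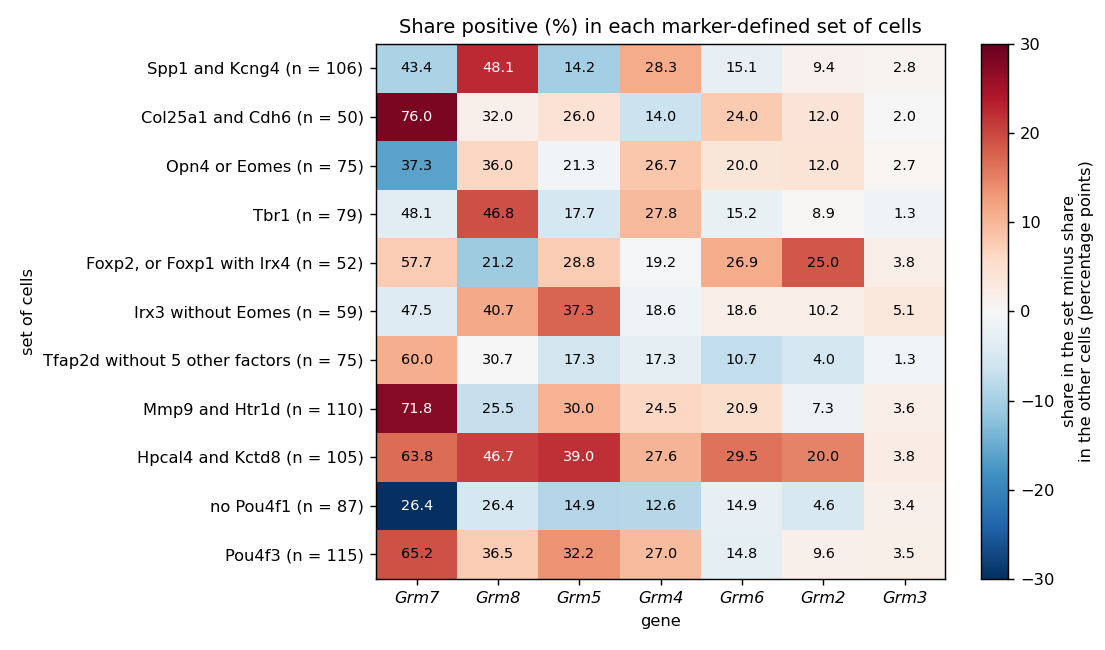
Each cell of the grid gives the share of cells (%) positive for a gene (columns) in a marker-defined set (rows, with the number of cells), and the colour gives the share in the set minus that in the other cells, in percentage points. The deepest red is Grm7 with Col25a1 and Cdh6 at 76%, the deepest blue is Grm7 in cells without Pou4f1 at 26.4%, and Grm8 is red with Spp1 and Kcng4 at 48.1% and with Tbr1 at 46.8%; Tfap2d without 5 other factors stands for Tfap2d without Eomes, Foxp2, Tbr1, Neurod2 and Irx3.

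Grm6 was found with bipolar cell genes. It was positive in 64 cells with 3 or more bipolar markers (47.1% of them, 38.4% to 55.8%), against 16 other cells (4.76%, 2.75% to 7.62%), where 10.3% of genes were higher by 15 points or more and Grm6 was the only member counted. By the number of bipolar markers its share was 0.5% with none (1 of 200 cells), 11.03% with 1 or 2, 34.6% with 3 or 4 and 65.5% with 5 to 8 (36 of 55 cells). Over the same steps Grm8 stayed between 28.5% and 33.3%, while Grm7 was at 48%, 45.6%, 60.5% and 60%. Over the amacrine steps Grm8 rose, from 24.8% with none to 56.1% with 5 or 6 (23 of 41 cells). All 8 bipolar markers were positive in some cells. Their summed level had a median of 384.03 CPM (52.4 to 2434) in the cells with 3 or more and of 5.85 CPM (0 to 1230) in the others. Among cells with fewer than 3 markers of each scored neuron (bipolar, amacrine, rod and cone), Grm6 was positive in 2 (1.46%, 0.177% to 5.17%).

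The Grm6-positive cells also carried ganglion cell genes. Each of the 80 had at least 6 of the 12 pan-ganglion-cell genes, with a median Slc17a6 level, the vesicular glutamate transporter of ganglion cells, of 394.7 CPM, against 555 CPM in Grm6-negative cells. Trpm1, the cation channel that mGluR6 controls in ON bipolar cells, was positive in 62 of the 80 (77.5%), against 27.04% of the other cells. Gpr179, an orphan receptor that anchors regulators of that cascade, was positive in 52.5% against 10.7%, and Rgs9bp, which tethers RGS proteins, in 51.2% against 11.7%. The beta subunit gene Gnb3 was positive in 73.8% against 30.9%, and the gamma subunit gene Gng13 in 48.8% against 14.03%. Nyx, which encodes the matrix protein nyctalopin needed for the cascade, was positive in 3 of the 80 cells and 3 of the others. The cascade genes that were common in all cells differed less: Rgs7 was positive in 78.8% against 67.3%, Rgs11 in 85% against 72.96% and Gnb5 in 90% against 81.1%.

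Markers of other retinal cells moved with Grm6 as well. It was positive in 76 cells with 3 or more rod markers (23.7% of them), against 4 other cells (2.65%), and in 60.8% of the 51 cells with 3 or more cone markers, against 11.6%. Its share was 47.9% of cells with 3 or more amacrine markers, against 6.76%, and 44.8% of cells with 3 or more Müller glia markers, against 8.99%. Grm7 was counted as higher with cone markers too, at 70.6% (56.2% to 82.5%) against 48.5%, a difference of 22.1 points and of 20.1 within runs. With Müller glia markers Grm7 was at 62.9% against 47.4%, a difference of 15.4 points. Backgrounds were 4% of genes for rod, 31.9% for cone, 32.9% for amacrine and 15.2% for Müller glia markers. These sets overlap, with all but 2 of the bipolar-marker cells also in the rod set and 84 in the amacrine set. With 3 or more bipolar but fewer amacrine markers Grm6 was positive in 11 of 52 cells (21.2%, 11.1% to 34.7%), and with 3 or more amacrine but fewer bipolar markers in 3 of 33 (9.09%, 1.92% to 24.3%). With both it was positive in 53 of 84 (63.1%, 51.9% to 73.4%). Which source the Grm6 counts have was not tested.

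Grm2 went with markers of several other retinal cells, by more points with amacrine (20.6) than with bipolar ones (10.8). Its share was 16.2% of cells with 3 or more bipolar markers, against 5.36% of the others. With cone markers it was 23.5% against 6.65%, and with Müller glia markers 20.95% against 4.90%. These sets overlap. Grm2 was positive in 28 cells with 3 or more amacrine markers (23.9% of them, 16.5% to 32.7%), against 12 other cells (3.38%, 1.76% to 5.83%). Its share was 2.55% with no amacrine marker and 36.6% with 5 or 6 (15 of 41 cells). With 3 or more amacrine but fewer bipolar markers it was positive in 9 of 33 cells (27.3%, 13.3% to 45.5%), and with 3 or more bipolar but fewer amacrine markers in 3 of 52 (5.77%, 1.21% to 15.9%). These intervals overlap. The summed level of the 6 amacrine markers had a median of 348.2 CPM (46.3 to 2836) in the cells with 3 or more and of 21.5 CPM (0 to 1111) in the others, and none of the 6 was at 0 throughout. Gad1 and Gad2, which encode the enzymes that make GABA, were positive in 72.5% and 57.5% of the 40 Grm2-positive cells, against 39.4% and 25.5% of the other cells. Cells with 3 or more amacrine markers had a median of 6563 positive genes, against 5168 in the others. With 3 or more bipolar markers it was 5966, against 5449. Of the genes in the count, 32.9% and 10.3% were higher by 15 points or more in these sets. From 0 to 5 or 6 amacrine markers, Grm5 went from 18.5% to 39.02% and Grm8 from 24.8% to 56.1%. The part of this in the Grm2 shares was not tested.

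In cells with 3 or more amacrine markers the share of Grm5 was 35.04%, against 17.7% in the others. Among cells with fewer than 3 markers of each scored neuron (bipolar, amacrine, rod and cone), Grm7 was positive in 69 (50.4%, 41.7% to 59.01%). Grm8 was positive in 36 of them (26.3%, 19.1% to 34.5%), Grm4 in 23 (16.8%, 10.95% to 24.1%) and Grm5 in 22 (16.1%, 10.3% to 23.3%). Grm2 was positive in 4 of these cells (2.92%, 0.801% to 7.31%) and Grm3 in 3.

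**Figure D5:**
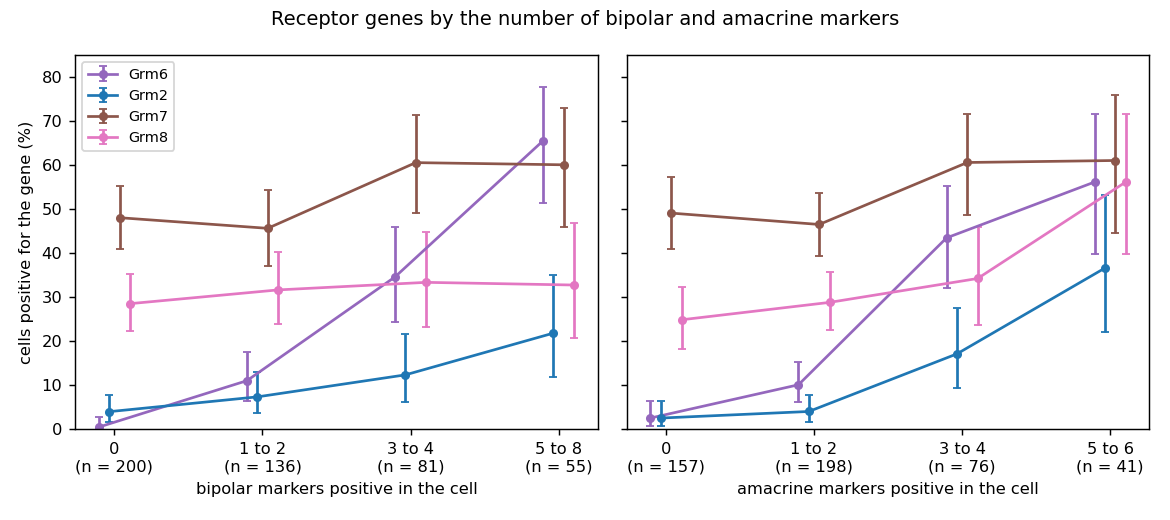
The share of cells (%, from 0) positive for Grm6, Grm2, Grm7 and Grm8 is plotted against the number of bipolar markers (left) and amacrine markers (right) positive in the cell, with exact 95% intervals and the number of cells under each step. Grm6 is at 0.5% with no bipolar marker and 65.5% with 5 to 8, and Grm2 is at 2.55% with no amacrine marker and 36.6% with 5 or 6. Grm8 stays between 28.5% and 33.3% over the bipolar steps and goes from 24.8% to 56.1% over the amacrine steps.

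The genes closest to each member were ranked by Pearson's r of log2(CPM + 1) over all cells, among 11149 genes positive in 10% or more of cells. All values come from the same libraries and share their depth, so r is a description. Closest to Grm6 were Cacna2d4, a calcium channel subunit of photoreceptor terminals (r = 0.54), Pcp2, a bipolar cell gene (0.54), and Trpm1 (0.53). An r of 0.4 or more was reached by 58 genes with Grm6 (0.52%), among them 5 of the 6 bipolar markers in the ranking and none of the 12 pan-ganglion-cell genes.

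Closest to Grm7 were Cntn4, which encodes the axonal adhesion protein contactin 4 (r = 0.51), the pseudogene Tmem181b-ps (0.46) and Ppfibp1, a liprin gene (0.45). With Grm7, 11 genes reached 0.4 (0.0987%), and 29 did without the bipolar-marker cells. Cntn4 was positive in 50.6% of all cells. For the other 5 members no gene reached 0.4, and their closest genes are named only. They were Npy, C1ql2 and Qpct for Grm2 (r of 0.33 to 0.37), Pde2a, Lemd2 and Armc5 for Grm3 (0.22 to 0.27), and Greb1l, Sema7a and Dph2 for Grm4 (0.26 to 0.27). For Grm5 they were Pcdh17, Gpr26 and Cntn4 (0.30 to 0.32), and for Grm8 they were Drd1, A230006K03Rik and Gm47987 (0.31 to 0.32). Among the members themselves r was highest between Grm5 and Grm7, at 0.28.

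Of 59 listed genes that work with these receptors, 20 were positive in 50% or more of cells, beside 19.2% of the 22436 genes positive in any cell. The Gi/o list, for the proteins that group II and III receptors act through, held 6 of 16 such genes. Gnao1, the alpha subunit of Go, was positive in 91.3% of cells, Gnai1 in 69.7%, the adenylyl cyclase gene Adcy1 in 64.6% and the potassium channel gene Kcnj9 in 59.3%. The Gq list held 3 of 10, with phospholipase C genes Plcb4 at 75.4% and Plcb1 at 66.3% and the calcium release channel gene Itpr1 at 55.5%. Gnaq and Gna11, the Gq family alpha subunits, were positive in 38.3% and 48.7%.

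Scaffolds of Grm5 were uneven. Shank1 was positive in 89.6% of cells and Dlgap1 in 77.8%, while Homer2 was positive in 44.7% and Homer1, which links group I receptors to internal calcium stores, in 16.3%. Homer1 was positive in 17.3% of Grm5-positive cells, against 16.03% of the others. Ncdn, which encodes the mGluR5-binding protein norbin, was positive in 93.01%. Pick1, whose product binds mGluR7, was positive in 58.3% of Grm7-positive cells, against 36.6% of the others. Elfn1, a transsynaptic partner of group III receptors, was positive in 20% against 11.2%. Genes of other lists differed by Grm7 too, such as Rgs11 (89.6% against 59.9%) and Plcb1 (78.8% against 53.4%). Gng13 was lower in Grm7-positive cells, at 18.3% against 21.6%. Pick1 was also positive in 66.3% of Grm5-positive cells, against 42.4% of the others. No background over all genes stands beside these values. Grm7-positive cells had a median of 6048.5 positive genes, against 4456.5, and the part of this in those differences was not tested.

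The dipeptide NAAG is an agonist of mGluR3. Rimkla and Rimklb, which encode enzymes that make it, were positive in 80.5% and 60.2% of cells. Folh1 and Naalad2, which encode peptidases that break it down, were positive in 4.66% and 0.424%, and Grm3 itself in 2.12%. Of 5 glutamate uptake genes only Slc1a1, the neuronal transporter, passed 50%, at 51.9%, and Slc1a3, the glial one, was positive in 19.1%.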

How the data were processed

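The authors deposited a table of estimated counts, some not whole, covering 55450 genes plus 92 ERCC spike-ins for 472 cells, and a key that pairs library names with cells. Per the submitters' processing notes, STAR 2.7.0 and the mm10 build were used; for the counting tool and annotation, neither is given in the sources used here. Per the labels' protocols, reads were paired and 150 bases long. Counts were rounded (1.37% of values were not whole), scaled to CPM without spike-ins, and called positive at 10 CPM. In the median cell 2 ribosomal RNA loci took 17.1% of the counts, which lowers the CPM of other genes. All 7 members matched GENCODE mouse release 21, which gave positions (1-based) and exon lengths. Cells were not filtered in the main values. Cells were aspirated singly, so doublets were not called. The table held 0 columns or rows outside these samples.

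The design gives 1 group, so there was no test: shares, intervals, differences between sets and Pearson's r are descriptions. Run A held 234 cells. Grm7, Grm8 and Grm5 were positive in 240, 145 and 104 cells. The larger sets were Spp1 with Kcng4 (106), Mmp9 with Htr1d (110), Hpcal4 with Kctd8 (105) and Pou4f3 (115). In 136, 117 and 321 cells 3 or more bipolar, amacrine or rod markers were found. Cells with fewer than 3 markers of each scored neuron (bipolar, amacrine, rod and cone) numbered 137. The text may name every member, the genes of the marker, set and partner lists, and the 3 genes closest to each member; overlapping genes are named outside this rule. Members and lists were chosen with earlier results of these data known. The code for differences and correlations was checked on simulated data with known answers, which is no test of the real values. Alternatives were thresholds of 1 and 100 CPM, thinning, filters on cells, removal of runs and of cells with other cell types' markers, other pseudocounts, Spearman's rank correlation and transcript lengths. Promoter windows are from RefSeq. Python 3.11.15, numpy 2.4.6, pandas 2.3.3, scipy 1.17.1 and matplotlib 3.10.9 were used.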

Additional observations from a re-analysis of the deposited data

How the results depend on the processing

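No paired analysis was possible because there is 1 group. Alternatives that set aside cells with 3 or more amacrine markers, the within-run differences and the filter of 3000 positive genes for differences were chosen after seeing the data. Causes of the changes were not tested.

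At 1 CPM the shares were 14.8% for Grm2, 28.4% for Grm4, 32.6% for Grm5, 23.7% for Grm6, 57.4% for Grm7 and 35.6% for Grm8, with 80.5% for at least 1 member and 59.1% for 2 or more. At 100 CPM they were 2.12% for Grm2, 0% for Grm3, 4.03% for Grm4, 4.87% for Grm5, 3.81% for Grm6, 25% for Grm7 and 11.7% for Grm8, with 43.9% for at least 1 and 7.20% for 2 or more, 7 pairs above independent shares pooled over runs (18 at 10 CPM) and 5 partner genes in 50% of cells. Among cells with at least 3000 positive genes Grm7 was at 58.4%, at least 1 member at 84.2% and 2 or more at 52.6%. Grm8 was at 23.9% without run A, and at least 1 member at 79.7% without run D. Without cells with 3 or more bipolar markers Grm2 was at 5.36%, Grm6 at 4.76%, at least 1 at 70.8% and 2 or more at 36.9%. Without those with 3 or more amacrine markers Grm2 was at 3.38%, Grm5 at 17.7%, Grm6 at 6.76%, at least 1 at 70.4% and 2 or more at 35.5%. In cells with fewer than 3 markers of each scored neuron (bipolar, amacrine, rod and cone) Grm2 was at 2.92% and Grm5 at 16.1%. Grm6 was at 1.46% there and Grm8 at 26.3%. At least 1 member was at 70.8% of these cells and 2 or more at 34.3%, with 9 pairs above pooled independent shares. Few positive cells limit this count, and at 100 CPM no pair with Grm3 could be above. In positive cells the median level was 31.6 TPM for Grm2 and 39.8 TPM for Grm3, above their means.

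Of the alternative values for 20 differences between sets, 88 stayed past 15 points in the same direction, 29 fell under 15 points and 6 turned round. With markers and receptors at 100 CPM the difference was -2.62 points for Grm8 with Tbr1 (11 cells), and with Hpcal4 and Kctd8 (15 cells) -5.03 for Grm5, -3.94 for Grm6, -5.16 for Grm7 and -12.04 for Grm8. It was -3.87 for Grm6 with cone markers (7 cells), 6.70 for Grm8 with Spp1 and Kcng4, 7.76 for Grm5 with Irx3, -12.97 for Grm7 without Pou4f1 and 4.67 for Grm7 with Pou4f3. It was 13.7, 5.29, 10.3 and 3.05 for Grm6 with bipolar, rod, amacrine and Müller glia markers, 9.19 for Grm5 with amacrine markers and 12.5 for Grm7 with Müller glia markers. At 1 CPM it was -4.27 for Grm7 with Opn4 or Eomes, 11.3 for Grm5 with Irx3 and 14.8 for Grm7 with Müller glia markers. In thinned cells (7 cells did not reach the depth) these were -13.9 for Grm7 with Opn4 or Eomes, 14.7 for Grm6 with Hpcal4 and Kctd8 and 14.7 for Grm7 with Müller glia markers. Without bipolar-marker cells they were -12.6 for Grm7 with Opn4 or Eomes, and 2.32 for Grm6 and 11.7 for Grm7 with Hpcal4 and Kctd8; without amacrine-marker cells the last pair were 2.76 and 10.4. Within runs that set gave 14.7 for Grm6 and 12.9 for Grm7, and Müller glia markers 14.1 for Grm7; the rod set has no such value, since run E has no cell outside it. Among cells with at least 3000 positive genes the differences were 14.6 for Grm6 and 8.15 for Grm7 with Hpcal4 and Kctd8, 12.7 for Grm7 with Pou4f3, 13.8 for Grm5 with amacrine markers and 9.31 for Grm7 with Müller glia markers.

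Genes at r of 0.4 or more with Grm6 numbered 26 by Spearman's correlation, 35 with a pseudocount of 10 and 0 without bipolar-marker cells, a filter on genes close to Grm6 that removes 64 of the 80 Grm6-positive cells and so fixes this count. With Grm7 they numbered 6 with a pseudocount of 10, 24 with 0.1, 3 centred within runs and 29 without bipolar-marker cells. The threshold of 10 CPM is 51.8 counts in the median cell, counted without molecular identifiers. Grm7 was positive in 50.3% of cells thinned to 1000000 counts, against 50.8% in the main values. The part of RNA capture in the shares was not tested. With 1 sample of cells and no named animals, the spread between animals is unknown.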
